A study of Mus musculus with 8 samples.

Results

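The Ca2+/calmodulin-dependent kinase cascade outside the CaMKII family was measured as 8 genes in bulk RNA-seq of mouse hippocampus. The set comprised the CaM kinase I genes Camk1, Camk1d, Camk1g and Pnck, the CaM kinase IV gene Camk4, the related pseudokinase gene Camkv, and the activating kinase genes Camkk1 and Camkk2. Members were taken by gene symbol from the deposited count table, where each of the 8 had exactly 1 of the 46078 entries, and all 8 passed the filter on low counts that left 15859 tested genes. The 8 libraries comprised 4 from wild-type mice (WT) and 4 from mice carrying 1 copy of the transgene Tg(Camk2a-cre)2Gsc, a line called CamiCre (Cre). All mice were 9 weeks old and of the C57BL/6J strain. In the Cre mice, regulatory DNA of Camk2a drives Cre recombinase in forebrain excitatory neurons, and no floxed allele is named for either group. The comparison therefore asked whether transcripts of these kinases differ in hippocampus that carries the Cre transgene by itself. The labels number the libraries but do not say that each came from a separate animal, so the p-values measure the spread between libraries, which may be technical. The samples are bulk tissue, in which fewer cells of a type and less RNA per cell cannot be told apart.

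When calcium enters a neuron it binds calmodulin, and calcium-loaded calmodulin opens the CaM kinases by lifting an autoinhibitory segment from the catalytic site. CaM kinases I and IV reach full activity after a CaM kinase kinase, the product of Camkk1 or Camkk2, phosphorylates a threonine in their activation loop. CaM kinase IV is concentrated in the nucleus, where it phosphorylates the transcription factor CREB. The CaM kinases I act mainly in the cytosol and are known for roles in the growth of axons and dendrites, and the product of Camkk2 also activates the energy sensor AMPK. Camkv encodes a protein that binds calmodulin, resembles the CaM kinases and lacks kinase activity, and it is known for a role in maintaining dendritic spines.

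The DNA just before the start sites is shown for 4 members, Camkv and Camkk1 as those with the highest levels per kb of annotated exon and Camk1g and Camk1 as those with the lowest. Sequences are from RefSeq on build GRCm38.p6 and cover the 250 bases before the RefSeq start, 5′ to 3′ on the strand of the gene. That start can differ from the gene spans given below, which come from another annotation. The Camkv window lies almost wholly inside the span of its gene, and those of Camk1 and Camk1g partly inside theirs. Entries were found for 6 members, with a pair of start sites for Camk1d, and not for Camk4 or Pnck. Capitals mark matches on either strand to 3 motifs, the CRE half-site (TGACG or CGTCA), the CCAAT box (CCAAT or ATTGG) and the GC box (GGGCGG or CCGCCC).
Camkv, chr9:107935670-107935919, plus strand: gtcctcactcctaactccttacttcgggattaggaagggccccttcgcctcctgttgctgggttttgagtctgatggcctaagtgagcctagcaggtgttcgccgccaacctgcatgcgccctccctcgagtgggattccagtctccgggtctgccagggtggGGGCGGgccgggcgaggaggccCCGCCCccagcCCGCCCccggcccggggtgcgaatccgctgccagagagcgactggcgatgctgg
Camkk1, chr11:73018738-73018987, plus strand: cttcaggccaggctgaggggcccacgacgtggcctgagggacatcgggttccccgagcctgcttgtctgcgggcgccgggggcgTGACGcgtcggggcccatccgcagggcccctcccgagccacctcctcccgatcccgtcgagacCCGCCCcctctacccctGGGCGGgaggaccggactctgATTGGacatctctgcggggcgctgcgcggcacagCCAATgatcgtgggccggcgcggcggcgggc
Camk1g, chr1:193370283-193370532, minus strand: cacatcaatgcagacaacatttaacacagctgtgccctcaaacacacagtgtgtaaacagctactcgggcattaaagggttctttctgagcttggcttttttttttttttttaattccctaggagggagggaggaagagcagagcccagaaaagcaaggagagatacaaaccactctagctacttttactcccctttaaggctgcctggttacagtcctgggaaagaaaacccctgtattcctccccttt
Camk1, chr6:113343923-113344172, minus strand: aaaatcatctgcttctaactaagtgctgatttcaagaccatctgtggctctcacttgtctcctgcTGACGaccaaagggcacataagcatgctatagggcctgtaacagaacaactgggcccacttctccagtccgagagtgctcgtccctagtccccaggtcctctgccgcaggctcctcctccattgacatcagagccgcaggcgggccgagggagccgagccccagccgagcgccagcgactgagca

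The windows differ in base composition and in these letters. G and C made up 67.6% of the Camkv window and 74.4% of the Camkk1 window, against 44.8% for Camk1g and 58.0% for Camk1. The median of all 32851 promoter windows was 52.4%. The Camkk2 window had 72.4%, and Camkk2 was 6th of the 8 members in level per kb of annotated exon. The windows of Camk1d had 69.2% and 48.4%. Whether base composition goes with level was not tested. GC boxes stood in the windows of Camkv (3 matches), Camkk1 (2), Camkk2 (1) and both windows of Camk1d (2 and 1), and in 32.7% of all windows. Neither Camk1g nor Camk1 held a GC box. The CRE half-site, part of the element that CREB binds, was present in 2 of the 7 member windows, those of Camk1 and Camkk1, and in 17.8% of all windows. The full element (TGACGTCA, which contains the half-site on both strands) was in 0 of the 7 and in 1.55% of all windows. The letters TATAAA or TTTATA were also in 0 of the 7, against 12.4% of all windows. The CCAAT box was found in the Camkk1 window alone among the 7 (2 matches), against 33.8% of all windows. These matches describe letters in a window of fixed size and do not show binding.

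All 8 genes were well covered, with 632 to 23707 counts per gene and library in libraries of 21339996 to 27826871 total counts. No Cre transcript was analysed here, so the labels have no independent check. Syt2 and Slc6a7 are among the genes called in this comparison. Syt2 ranged from 32.8 to 41.5 CPM (the count of a gene divided by its normalised library total, times 1000000) in WT and from 164 to 188 CPM in Cre, and Slc6a7 at 67.6 to 78.9 and 289 to 334 CPM. Markers of the dissected tissue were present in WT, with the granule cell gene Prox1 at 107 ± 7.44 CPM, the CA1 gene Wfs1 at 147 ± 21.5 CPM and the vesicular glutamate transporter gene Slc17a7 at 1688 ± 90.2 CPM (SD, n = 4). Summed microglia and astrocyte markers were higher in each Cre library than in any WT library, and choroid plexus markers differed between libraries. Log2 fold changes were above 0 for 12 of 12 microglia, 9 of 10 astrocyte and 10 of 10 oligodendrocyte markers. Of these, 6, 4 and 2 had an unadjusted p under 0.05 by edgeR (against 3.5% of all genes), and 0 passed over all genes. Oligodendrocyte markers summed to 4076 to 4529 CPM in WT and 4093 to 5253 CPM in Cre. The summed level of 12 microglia markers was 399.8 to 434 CPM in WT and 437 to 582 CPM in Cre, with Cre replicate 1 highest, and that of 10 astrocyte markers was 5160 to 5521 CPM in WT and 5531 to 6173 CPM in Cre. The summed level of 6 choroid plexus markers was 1576 CPM in WT replicate 1 and 122 to 158 CPM in the other 7 libraries. The part of these markers in the values of the kinases was not tested. The 6 markers of excitatory neurons, the cells in which the transgene is active, summed to 6623 to 7116 CPM in WT and 6655 to 7129 CPM in Cre. Most of this sum was Camk2a, at 4652 ± 120 CPM in WT. Of the 6 markers, 4 had log2 fold changes above 0 and 2 below. Below 0 were also 4 of 8 granule cell, 5 of 7 CA1 and all 6 tested CA2 and CA3 markers, against 49.8% of all genes. In each of these lists 0 had an unadjusted p under 0.05 by edgeR.

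No member of the cascade differed between Cre and WT beyond the spread of the libraries. Of the 8 genes, 0 passed an adjusted p of 0.05 in edgeR's quasi-likelihood test, with p-values adjusted by Benjamini-Hochberg over all 15859 genes, where 5 genes (0.0315%) passed. At an unadjusted p under 0.05 there were also 0 of 8 by edgeR, by DESeq2 and by limma voom, against 3.5% of all genes by edgeR. The ranges of the groups overlapped in all 8 members, and did not overlap in 2.31% of all genes. Fold changes (Cre over WT, log2 scale) were below 0 in 6 members and above 0 in 2, with Camkk2 so close to 0 that it moved to the other side under each other scaling tried, and 49.8% of all genes lay below 0. The median log2 fold change was -0.02 over the members and 0.0004 over all genes, and the median absolute value was 0.03 and 0.05. In a fit without WT replicate 1 and Cre replicate 1, the libraries highest in choroid plexus and microglia markers, 0 of 8 passed as well. The log2 fold changes were then 0.14 for Camk1, -0.08 for Camk1d, -0.05 for Camk1g, 0.01 for Pnck, -0.12 for Camk4, -0.03 for Camkv, -0.03 for Camkk1 and 0.001 for Camkk2. Taking every 95% confidence interval of the 8 genes together, rises above 16.8% and falls beyond -14.6% lay outside them.

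**Figure D1:**
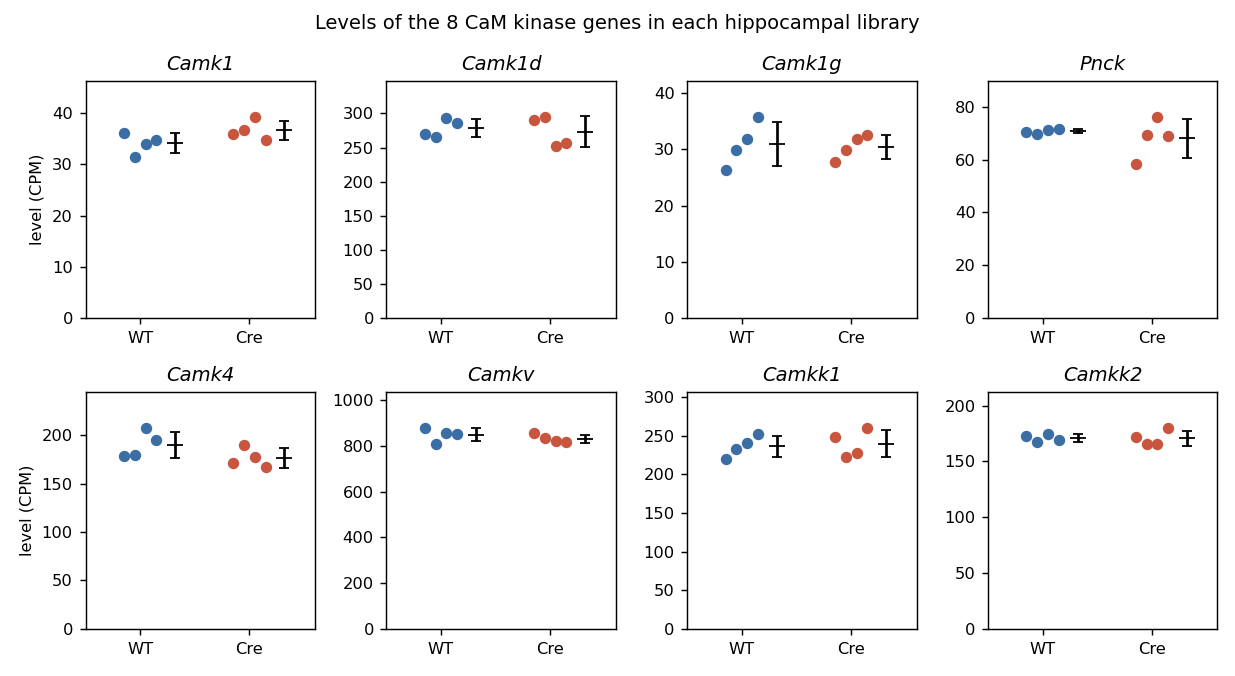
Level of each gene in CPM (vertical axes, from 0) for the 4 WT libraries (blue points, replicates 1 to 4 from left to right) and the 4 Cre libraries (red points), with mean and SD beside each group. The points of WT and Cre cover overlapping ranges in all 8 panels.

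Among the CaM kinase I genes, Camk1 had the estimate furthest above 0. Camk1, which encodes the alpha isoform, lies on chromosome 6 at 113334124 to 113343984 (GRCm38, minus strand). Its level was 36.1, 31.4, 33.9 and 34.8 CPM in WT replicates 1 to 4 and 35.9, 36.6, 39.2 and 34.7 CPM in Cre replicates 1 to 4. WT replicate 2 was the lowest and Cre replicate 3 the highest, while 2 Cre libraries lay inside the WT range. Mean levels were 34.0 ± 1.95 CPM (WT) and 36.6 ± 1.89 CPM (Cre; SD, n = 4 each). The log2 fold change was 0.10 (SE 0.06, 95% interval -0.01 to 0.22, edgeR adjusted p = 0.999), a rise of 7.52% that did not pass. Without WT replicate 1 and Cre replicate 1 together, a fit added after seeing the data, the value was 0.14. The edgeR p there was 0.0410 unadjusted and 0.9998 adjusted. The 3′ end of Camk1 shares 232 exon bases, 3.88% of its exons, with the DNA repair gene Ogg1 on the opposite strand. Ogg1 was measured at 5.80 ± 0.31 CPM in WT, against 6.13 ± 0.49 CPM in Cre, with a log2 fold change of 0.08 (SE 0.10), and the strand setting of the counting is not given in the sources used here, so reads of both genes there cannot be told apart.

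Camk1d encodes the delta isoform of CaM kinase I and spans 421 kb of chromosome 2 (5293457 to 5714515, minus strand). The WT libraries had 269, 265, 294 and 286 CPM, and the Cre libraries 290.5, 294, 252 and 256 CPM. Cre replicates 1 and 2 were at the top of the range of all 8 libraries, with WT replicate 3 between them, and Cre replicates 3 and 4 were below every WT library. The means of 279 ± 13.5 and 273 ± 22.4 CPM therefore differed by less than either SD. The log2 fold change was -0.03 (SE 0.06, 95% interval -0.15 to 0.09), and it moved to 0.009 without Cre replicate 3.

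Camk1g encodes the gamma isoform, which is anchored to membranes by a lipid group and is known for a role in dendrite growth. The gene lies on chromosome 1 at 193346346 to 193370298 (minus strand). It had 26.2, 29.8, 31.7 and 35.7 CPM in WT replicates 1 to 4, and 27.7, 29.9, 31.8 and 32.4 CPM in Cre replicates 1 to 4. WT libraries held both the lowest and the highest value, and all 4 Cre libraries lay between them. The log2 fold change of -0.02 (SE 0.08) had the widest interval of the 8 genes, -0.20 to 0.16, and became 0.06 without WT replicate 4, -0.09 without WT replicate 1, the library high in choroid plexus markers, and 0.03 without Cre replicate 1.

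Pnck encodes the beta isoform of CaM kinase I and lies on chromosome X at 73655994 to 73660117 (minus strand). The 4 WT libraries were close together at 70.4, 69.8, 71.1 and 71.4 CPM, and the Cre libraries had 58.2, 69.2, 76.0 and 68.97 CPM. All 4 WT libraries fell inside the Cre range, and Cre replicate 1, the library highest in microglia markers, was the lowest of all 8. The coefficient of variation was 1.04% in WT and 10.8% in Cre, and counting error by itself would give 2.35% and 2.45% at these counts. The WT spread was thus smaller than that of counting error alone. The log2 fold change was -0.05 (SE 0.06, 95% interval -0.19 to 0.09), 0.02 (SE 0.04) without Cre replicate 1 and -0.11 (SE 0.06) without Cre replicate 3, the highest library.

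Camk4, the gene of the nuclear kinase CaM kinase IV, had the estimate furthest below 0. It lies on chromosome 18 at 32934931 to 33191228 (plus strand), 27.7 Mb from Camk2a, the gene whose regulatory DNA the transgene uses. The WT libraries had 179, 179.7, 208 and 195 CPM, and the Cre libraries 171, 190.1, 177 and 167 CPM. In Cre, 3 of 4 libraries lay below all WT libraries, and Cre replicate 2 lay above WT replicates 1 and 2. Mean levels were 190.2 ± 13.7 CPM (WT) and 176 ± 10.0 CPM (Cre; SD, n = 4 each). The log2 fold change was -0.11 (SE 0.06, 95% interval -0.23 to 0.01, edgeR adjusted p = 0.999), a difference of -7.23% that did not pass. Without Cre replicate 2 the log2 fold change was -0.15 (edgeR unadjusted p = 0.0241), and without WT replicate 3 it was -0.06 (unadjusted p = 0.266). Over the 17 other settings tried the adjusted p of Camk4 ran from 0.891 to 0.9999. The antisense transcript 2310026I22Rik shares 72 exon bases with Camk4 and gave 0.36 ± 0.08 CPM in WT, against 0.51 ± 0.09 CPM in Cre. Its log2 fold change of 0.50 (SE 0.29, edgeR unadjusted p = 0.105, adjusted p = 0.999) did not pass. The transcript was scarce, with at most 0.63 CPM in any library.

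Camkv, the pseudokinase gene, lies on chromosome 9 at 107935674 to 107949691 (plus strand). It had 878, 809, 856 and 849 CPM in the WT libraries and 854, 834, 820.1 and 815 CPM in the Cre libraries. All 4 Cre libraries lay inside the WT range. With 17632 to 23707 counts per library it had the narrowest interval of the 8 genes, -0.10 to 0.04 around a log2 fold change of -0.03 (SE 0.03), so that a rise above 2.85% or a fall beyond -6.70% was outside it.

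Neither activating kinase gene passed the threshold. Camkk1 lies on chromosome 11 at 73019008 to 73042073 (plus strand) and had 221, 232, 241 and 252 CPM in WT and 248, 223, 228 and 260.3 CPM in Cre. The lowest value was in WT replicate 1 and the highest in Cre replicate 4, with 3 Cre libraries inside the WT range. Its log2 fold change was 0.02 (SE 0.05, 95% interval -0.10 to 0.14), and -0.01 without WT replicate 1. Camkk2 lies on chromosome 5 at 122731170 to 122779409 (minus strand) and had 172, 167, 175 and 169 CPM in WT and 172, 166, 166 and 179.97 CPM in Cre. The group means of 171 ± 3.21 and 171 ± 6.70 CPM (SD, n = 4 each) were the closest of any member. The 95% interval of its log2 fold change was -0.08 to 0.08, so that for this gene a rise above 6.02% or a fall beyond -5.68% was outside it.

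**Figure D2:**
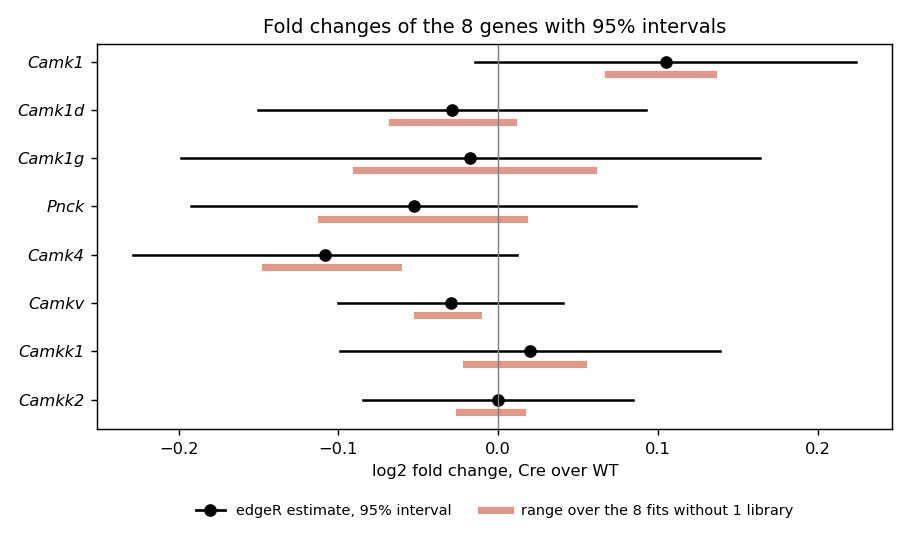
Log2 fold change of Cre over WT (horizontal axis) for each gene, with the edgeR estimate as a point, its 95% confidence interval as a black line, and the range over the 8 fits that each left out 1 library as a red bar. All 8 black lines cross 0, and the red bars of Camk1, Camk4 and Camkv do not.

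Levels were compared between genes per kb of annotated exon, because CPM are not corrected for transcript length. Values are means ± SD over all 8 libraries. Camkv was the highest at 223 ± 6.30 CPM per kb, above 99.4% of the 14974 genes with an exon length. Camkk1 followed at 63.9 ± 3.87 and Camk4 at 56.2 ± 4.08 CPM per kb, with overlapping ranges although Camkk1 was above Camk4 in each of the 8 libraries. Camk1d (37.15 ± 2.34) and Pnck (35.2 ± 2.56 CPM per kb) did not differ beyond their spread, with Camk1d above Pnck in 6 of 8 libraries. Camkk2 (15.65 ± 0.45), Camk1g (11.1 ± 1.07) and Camk1 (5.91 ± 0.37 CPM per kb) came last, and their ranges did not overlap. From Camkv to Camk1 the level per kb fell by a factor of 37.7.

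Part of this order depended on the length used. The union of all annotated exons is 10.9 kb for Camkk2 and 5.98 kb for Camk1, while their longest annotated transcripts are 4.86 and 2.40 kb. With the longest transcript as length, Camkk2 rose to 35.2 ± 1.0 CPM per kb and overlapped Camk1d at 39.6 ± 2.49, and Camk1 (14.7 ± 0.93) passed Camk1g (12.4 ± 1.19). Camk4 (67.5 ± 4.90) then stood beside Camkk1 (64.1 ± 3.88 CPM per kb), with overlapping ranges. The ratio of Camkk1 to Camkk2 in level per kb was 4.08 with the union of exons and 1.82 with the longest transcript. Pnck (45.2 ± 3.29 CPM per kb) was above Camk1d in 7 of the 8 libraries by the longest transcript. Camkv remained the highest under both lengths. With the longest transcript its level was 20.6 times that of Camk1g, then the lowest member.

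**Figure D3:**
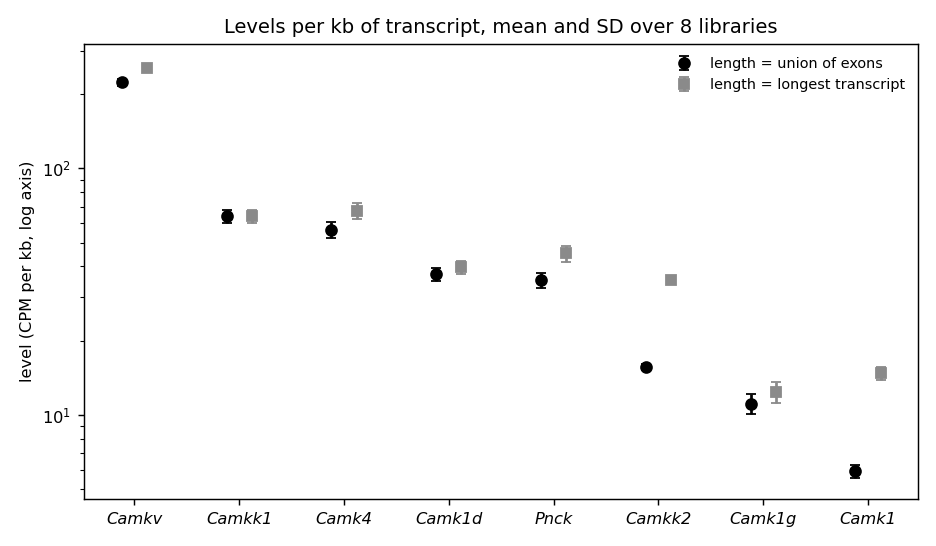
Level of each gene in CPM per kb (vertical log axis), mean and SD over the 8 libraries, with the union of exons (circles) or the longest annotated transcript (squares) as length. Camkv lies highest by both lengths, and the squares of Camkk2 and Camk1 lie well above their circles.

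Within every library some members lay above and others below their mean. Relative to each gene's mean log2 CPM, WT replicate 2 had 7 of 8 members below and WT replicate 3 had 7 of 8 above, while WT replicate 1 had 4 on each side. The deviations furthest from 0 were -0.25 for Pnck in Cre replicate 1, 0.22 for Camk1g in WT replicate 4 and -0.22 for Camk1g in WT replicate 1. The 4 Cre libraries had 3 to 5 members below the mean. Within WT the coefficient of variation ran from 1.04% (Pnck) to 12.8% (Camk1g), and within Cre from 2.07% (Camkv) to 10.8% (Pnck), where the medians over all tested genes were 6.58% and 7.46%.

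**Figure D4:**
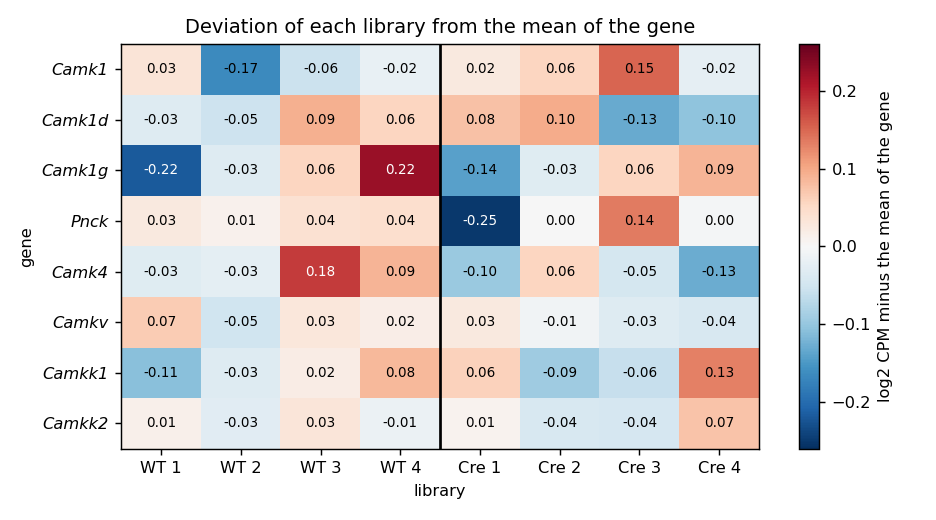
Deviation of log2 CPM from the mean of each gene (colour and printed value), with genes in rows and the 4 WT and 4 Cre libraries in columns, divided by a black line. No column is of 1 sign throughout, and Pnck in Cre replicate 1 is the furthest from its mean at -0.25.

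For each member, the 2 other genes with the most similar pattern were sought by Pearson's r of log2 CPM over the 8 libraries, among 10522 genes with a mean log2 CPM of at least 3. These values describe the libraries, which share group, depth and tissue makeup, and with so many genes a high r over 8 points is common. Most alike were Fmnl3 (r = 0.98) and Nup35 (0.93) for Camk1, Nt5dc3 (0.98) and Lingo1 (0.98) for Camk1d, Mtmr4 (0.98) and Thop1 (0.97) for Camk1g, and Mfge8 (0.98) and Rgs12 (0.97) for Pnck. For the other members they were Tbc1d24 (r = 0.98) and Kif3c (0.96) for Camk4, Grhl1 (0.97) and Dnajc30 (0.95) for Camkv, Rasl10a (0.98) and Luc7l (0.96) for Camkk1, and 5330417C22Rik (0.95) and Pacsin2 (0.94) for Camkk2. The number of genes with r above 0.9 ran from 3 for Camk1 to 93 for Camk1g. No gene was named for more than 1 member.

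Genes around the cascade were examined in 6 lists. By edgeR, DESeq2 or limma voom, each without a covariate, 0 genes of any list passed over all genes. Upstream, the 13 genes of calmodulin supply and of phosphatases had 0 at an unadjusted p under 0.05 by each of the 3 tools, with a median log2 fold change of 0.003. Ppm1e, which encodes a phosphatase that removes the activating phosphate from CaM kinases, had 535 ± 15.9 CPM (WT) and 517 ± 28.7 CPM (Cre; log2 fold change -0.05, SE 0.04). Nrgn, which encodes the calmodulin-binding protein neurogranin, had 1364 ± 19.7 and 1415 ± 82.6 CPM (0.05, SE 0.04), and the calcineurin subunit gene Ppp3cb 423 ± 11.0 and 406 ± 21.5 CPM (-0.06, SE 0.04).

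Downstream of CaM kinase IV, the 16 genes of CREB, its cofactors and other nuclear partners also had 0 at an unadjusted p under 0.05 by the 3 tools, with a median of -0.006. Creb1, which encodes CREB, had mean levels of 55.6 ± 4.88 CPM (WT) and 56.5 ± 1.21 CPM (Cre), with a log2 fold change of 0.02 (SE 0.06). The CREB relatives Crem (11.96 ± 1.29 and 11.9 ± 1.57 CPM) and Atf1 (11.0 ± 0.57 and 12.02 ± 0.72 CPM) and the factor gene Mef2a (221 ± 3.43 and 211 ± 7.88 CPM) did not pass either. Of 16 genes known to respond to CREB and neuronal activity, 15 had log2 fold changes above 0 (median 0.26, against 0.0004 over all genes), 6 had an unadjusted p under 0.05 by edgeR (against 3.5% of all genes) and 5 by DESeq2, and 1, Gadd45b, did not overlap between the groups (against 2.31% of all genes). The smallest p-values were those of Fos, a factor gene induced by neuronal firing, at 15.5 to 22.6 CPM (WT) and 20.7 to 34.2 CPM (Cre; log2 fold change 0.58, SE 0.15), Gadd45b, a growth arrest gene, at 12.7 to 14.7 and 15.3 to 18.7 CPM (0.28, SE 0.08), and Arc, a synaptic plasticity gene, at 144 to 219 and 184 to 280.3 CPM (0.43, SE 0.15). None of the 3 passed over all genes in these fits without a covariate. In an edgeR fit that took replicate number as a block, Fos passed (adjusted p = 0.0112). The labels do not say that equal numbers are paired. The summed level of all 16 genes ranged from 1184 to 1464 CPM in WT and from 1257 to 1712 CPM in Cre.

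The list of 14 tested genes covered AMPK and AKT, which lie downstream of the CaM kinase kinases, and LKB1, another activator of AMPK. Of these genes, 2 had an unadjusted p under 0.05 by edgeR (against 3.5% of all genes), in opposite directions, and the median was 0.008. Prkaa2, which encodes the alpha 2 catalytic subunit of AMPK, had mean levels of 38.9 ± 2.20 CPM (WT) and 35.5 ± 1.67 CPM (Cre; log2 fold change -0.13, SE 0.05), and the kinase gene Akt2 had 85.7 ± 3.56 and 93.5 ± 5.36 CPM (0.12, SE 0.05). For both genes the ranges of WT and Cre overlapped. The 14 cytosolic partners of CaM kinase I had 0 at an unadjusted p under 0.05 and a median of -0.02. Among them Arhgef7, which encodes an exchange factor for Rac that CaM kinase I phosphorylates, had 143 ± 3.96 and 143 ± 3.07 CPM (log2 fold change -0.004, SE 0.04). Of 18 other kinases linked to calcium and calmodulin, 2 had an unadjusted p under 0.05 by edgeR (against 3.5% of all genes), both higher, with a median of -0.01. They were Phkg1, a catalytic subunit gene of phosphorylase kinase, at 24.97 ± 1.602 and 27.8 ± 1.93 CPM, and Dapk3, a death-associated kinase gene, at 36.1 ± 2.72 and 39.4 ± 1.58 CPM. Camk2a itself had a log2 fold change of 0.005 (SE 0.03).

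The authors' deposited table of the same comparison, which rests on these same libraries, gave log2 fold changes that differed from those computed here by at most 0.001 for the 8 members. The authors' deposited table had its smallest member p-values for Camk4 (0.0955) and Camk1 (0.112), and after Benjamini-Hochberg adjustment none of the 8 members was below 1.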

How the data were processed

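Hippocampal poly(A) RNA of 4 WT and 4 Cre libraries was sequenced in 150-base read pairs with a directional kit, per the labels' protocols. The authors deposited whole-number counts per gene symbol, not normalized, made with STAR 2.6.1d and featureCounts on GRCm38, per the submitters' processing notes, which also name edgeR 3.11. Which annotation release and strand setting were used is not given in the sources used here. A further deposited table holds the authors' own Cre against WT results, as a log2 fold change, a log2 abundance, a p-value not stated to be adjusted, and 2 further columns (a signed fold and a linear abundance, both treated as a score) that were not used.

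Of 46078 entries, 272 repeat an earlier symbol and were kept as separate entries. Low counts were filtered with filterByExpr (minimum count 10 and minimum total 15), leaving at least 99.9% of each library's counts, and libraries were scaled by TMM. Cre was compared with WT by edgeR's quasi-likelihood test (edgeR 4.0.16, R 4.3.3, no covariate, 2-sided, Benjamini-Hochberg over 15859 genes, threshold 0.05). The test was also run on simulated counts with the same dispersion for all genes and with changes larger than those of the members. That run cannot show whether changes as small as those of the members would be found. DESeq2 1.42.0, limma voom (limma 3.58.1), other scalings and filters, a replicate block and leaving out each library were alternatives, and a fit without WT replicate 1 and Cre replicate 1 together was added after seeing the data. Replicate libraries differed by more than counting noise. Intervals are at 95%. At these totals, 3 counts, the limit for a gene at 0, correspond to 0.107 to 0.142 CPM, counting error only. Positions and exon lengths are from GENCODE M21 (GRCm38), and start-site sequences from RefSeq (GRCm38.p6).

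The members, the 6 gene lists and the 13 marker lists were chosen with earlier results of these data known. Named genes are the members, up to 3 genes per list with the smallest p, fixed representatives (Creb1, Crem, Prkaa2, Arhgef7, Camk2a; a further one is not reported here), the 2 genes most alike to each member, and Syt2 and Slc6a7. Ogg1, 2310026I22Rik, Prox1, Wfs1 and Slc17a7 were named in addition, for overlap with a member or as markers.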

Additional observations from a re-analysis of the deposited data

How the results depend on the processing

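Over 17 alternatives, 0 of the 8 kinase genes passed the threshold in any, and 4 to 7 of all tested genes did, against 5 in the reported fit. The fits that left out 1 library gave 4 to 6 genes. Camk1 stayed above 0 (0.07 to 0.14 on the log2 scale) and Camk4 (-0.15 to -0.06) and Camkv (-0.05 to -0.01) below 0 in all 17. The other 5 changed sign in 2 to 10 alternatives, within -0.11 to 0.06. An unadjusted p under 0.05 was reached by Camk4 without a filter (0.0367) and by Camk4 or Camk1 in 5 of the 9 fits that left out libraries. With the replicate block, 6 of all tested genes and 0 of the 8 members passed, with log2 fold changes of -0.11 for Camk4 and 0.10 for Camk1. Under that block 1 of the CREB-responsive genes, Fos, also passed (edgeR adjusted p = 0.0112), and 11 of the 16 had an unadjusted p under 0.05, against 6 without the block. The labels do not say that equal numbers mark paired animals, and the deviations of same-numbered libraries correlated at 0.27, -0.16, -0.001 and 0.21. Counting error at the mean counts of a group was 0.68% to 3.67%. It was above the coefficient of variation for Pnck in WT (2.35% and 1.04%) and close to it for Camkk2 in WT (1.51% and 1.88%). The part of depth in those values was not tested.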

Other observations

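The balance between related members was described by their log2 CPM ratio in each library, as values without a test. The ratio of Camkk1 to Camkk2, the paired activating kinases, was 0.47 ± 0.09 in WT and 0.49 ± 0.05 in Cre (SD, n = 4 each), and all 4 Cre values lay between 0.43 and 0.53, inside the WT range of 0.36 to 0.58. The ratio of Camk1d to Camk1g was 3.18 ± 0.15 in WT and 3.17 ± 0.21 in Cre. The ratio of Camk4 to its activator gene Camkk1 was -0.32 ± 0.07 in WT and -0.44 ± 0.18 in Cre, with ranges of -0.37 to -0.22 and -0.64 to -0.23 that overlapped. The ratio of Camk4 to Camkk2 was 0.15 ± 0.09 in WT and 0.04 ± 0.13 in Cre, with ranges of 0.05 to 0.25 and -0.11 to 0.20. CPM are not corrected for length, so these ratios compare libraries and not amounts of the paired transcripts.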
